A study of Caenorhabditis elegans with 2 samples.

Results

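SNPC-1.2 belongs to SNAPc, the protein complex that activates small nuclear RNA genes, and its binding was mapped in Caenorhabditis elegans by chromatin immunoprecipitation and sequencing (ChIP-seq). The genes described here are the small nucleolar RNA (snoRNA) genes that have no same-strand host. They are genes of biotype snoRNA in the Ensembl annotation of assembly WBcel235 whose span does not lie wholly within a protein-coding gene of the same strand. There were 163 of them among 346 snoRNA genes and 46890 annotated nuclear genes; the other 183 snoRNA genes are hosted. Of the 163, 124 were intergenic, 33 lay antisense inside a protein-coding gene, 5 overlapped one partly on the opposite strand and 1 overlapped one partly on the same strand. Genes with long sequence names are given by their WormBase identifiers. The study held 1 group, whole L4 larvae of strain RW12251 collected at 48 hours after synchronisation by L1 starvation, in 2 biological replicates. These larvae carry the allele st12251, a CRISPR insertion of the TY1, EGFP and 3xFLAG tags at snpc-1.2 itself on chromosome III, and the fusion protein was precipitated with an antibody to GFP. Chromatin came from whole animals, so all tissues were pooled. The labels name no wild-type or untagged group, and no second condition was compared.

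snoRNAs guide chemical modification of other RNAs, mainly ribosomal RNA: box C/D snoRNAs guide 2'-O-methylation, and box H/ACA snoRNAs guide pseudouridylation. Many animal snoRNAs are cut out of the introns of host genes, whereas a snoRNA gene outside a host depends on a promoter of its own. SNAPc is known as the factor that recognises the proximal sequence element upstream of spliceosomal small nuclear RNA (snRNA) genes. RNA polymerase III promoters of transfer RNA (tRNA) genes instead lie within the transcribed region, where transcription factor IIIC binds the A box and the B box. In C. elegans, piRNA genes are concentrated in clusters on chromosome IV, taken here as 4.5 to 7 Mb and 13.5 to 17.2 Mb.

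SNPC-1.2 peaks lay at 54 of the 163 unhosted snoRNA genes (33.1%, exact 95% interval 26% to 40.9%) and at 39 of the 183 hosted snoRNA genes (21.3%, 15.6% to 28.0%). A gene counts as occupied here if the summit of a peak in the whole-series thresholded list, which draws on both replicates, falls at most 250 bp from the annotated 5' end. By this definition 6.91% of all nuclear genes were occupied. The share was 2.48% for protein-coding genes (496 of 19973), 44.2% for snRNA genes (57 of 129) and 66.2% for tRNA genes (405 of 612). Replicate 1's own list put 51 unhosted and 33 hosted snoRNA genes at a summit, with 3.43% of all nuclear genes. Replicate 2's own list put 50 unhosted and 35 hosted snoRNA genes at one, with 4.57% of all nuclear genes. The mean over the 2 replicate lists was 31.0% ± 0.434 for unhosted and 18.6% ± 0.773 for hosted snoRNA genes (SD, n = 2). The gap between the classes was larger than this spread, although the exact intervals of the whole-series shares overlapped. Chosen with results of these data known, and with 1 group only, the classes were not tested against each other. The number of reads per library is unknown, so intervals cover the counting of genes only.

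The occupied genes did not share peaks. The 54 genes had 54 distinct peaks, with a median width of 340 bp (range 87 to 882), and for 51 of them no other annotated 5' end was as near to the summit. A protein-coding 5' end stood within 250 bp of the summit for 4 of them. One of a piRNA gene did so for 2, and one of an unclassified non-coding RNA for 13. Only C16D9.10 among the 54 had a 5' end of a tRNA, snRNA or spliced leader RNA gene within 500 bp of its own. Repeated sequence was limited at the 54 genes. At the least unique of the 54 windows, 83.4% of 50-base words within 250 bp occurred once in the genome, and the median was 100%. At the 109 unoccupied unhosted genes the median was also 100%, but the least unique window had 17.7%.

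Upstream of the occupied unhosted genes, 8-base words on the gene's strand were counted in the 250 bases before the 5' end. The word held by most genes was TGTCGGCC, present at 13 of the 54 (24.1%) and in 0.241% of all promoters of the same length. The next word of mostly G and C whose matches did not overlap it was GCGGAACC, present at 11 of the 54 and in 0.239% of all promoters. Other occupied genes held, in the same stretch, sequences like the internal promoter of a tRNA gene. These were the start of an A box, TGGCNNA, and a B box, GTTCNANNC. The windows below run from 90 bases before to 10 bases from the 5' end on, in the RefSeq genome of WBcel235 (ce11), 5' to 3' on the gene's strand. The first set shows the words, paired or alone, at some of the highest genes, at their sequence relatives and at genes with weaker peaks. In it WBGene00220176, M03D4.78 and C17H12.36 hold only TGTCGGCC or its match, and C05H8.3 holds only GCGGAACC. Capitals mark the best match to each word with at most 1 mismatch, starting 90 to 35 bases before the 5' end.
Y67A10A.14 (chrIV:14327112-14327211, minus strand): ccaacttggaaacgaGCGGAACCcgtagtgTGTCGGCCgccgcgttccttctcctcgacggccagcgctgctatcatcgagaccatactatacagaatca
T08B6.64 (chrIV:4880841-4880940, minus strand): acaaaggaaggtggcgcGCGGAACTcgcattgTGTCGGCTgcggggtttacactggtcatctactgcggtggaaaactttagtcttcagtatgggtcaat
T26A8.6 (chrIV:8428730-8428829, minus strand): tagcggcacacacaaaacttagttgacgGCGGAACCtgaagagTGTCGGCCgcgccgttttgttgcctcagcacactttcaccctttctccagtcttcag
WBGene00220222 (chrIV:15649351-15649450, minus strand): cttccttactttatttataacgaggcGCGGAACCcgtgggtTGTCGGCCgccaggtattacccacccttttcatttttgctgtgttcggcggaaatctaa
WBGene00220176 (chrIV:16592934-16593033, minus strand): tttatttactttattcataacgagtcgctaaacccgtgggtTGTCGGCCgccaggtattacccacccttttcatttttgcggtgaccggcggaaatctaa
Y48A6C.10 (chrIII:11118271-11118370, plus strand): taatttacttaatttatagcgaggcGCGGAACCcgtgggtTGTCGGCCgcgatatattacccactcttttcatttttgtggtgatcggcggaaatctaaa
W07G1.23 (chrII:13946856-13946955, plus strand): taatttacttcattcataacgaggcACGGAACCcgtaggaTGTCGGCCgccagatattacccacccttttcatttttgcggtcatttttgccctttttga
M03D4.78 (chrIV:6117867-6117966, minus strand): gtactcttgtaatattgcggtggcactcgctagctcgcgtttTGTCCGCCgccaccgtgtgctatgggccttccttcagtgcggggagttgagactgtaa
C17H12.36 (chrIV:6792884-6792983, plus strand): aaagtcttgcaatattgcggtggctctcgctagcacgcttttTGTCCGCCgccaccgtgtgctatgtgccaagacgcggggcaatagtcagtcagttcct
C16D9.10 (chrV:8247952-8248051, minus strand): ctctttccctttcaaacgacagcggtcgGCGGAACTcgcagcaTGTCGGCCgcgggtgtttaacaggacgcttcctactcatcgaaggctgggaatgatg
C05H8.3 (chrIII:5653959-5654058, minus strand): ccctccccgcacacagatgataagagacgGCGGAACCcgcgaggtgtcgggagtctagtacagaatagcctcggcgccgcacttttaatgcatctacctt

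The second set shows genes with tRNA-like sequence, with the A box start and the B box in capitals, and then B0334.12, an occupied gene with neither kind of sequence and so no capitals. In this set the B box ended a few bases before the 5' end at most genes, so the pair of boxes lay before the annotated snoRNA and not inside it.
W03C9.9 (chrII:11960808-11960907, plus strand): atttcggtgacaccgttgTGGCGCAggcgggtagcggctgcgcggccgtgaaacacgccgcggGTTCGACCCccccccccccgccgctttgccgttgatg
F32E10.10 (chrIV:7574032-7574131, plus strand): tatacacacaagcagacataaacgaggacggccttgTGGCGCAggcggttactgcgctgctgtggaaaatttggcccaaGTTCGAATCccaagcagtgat
F12F6.11 (chrIV:11549855-11549954, minus strand): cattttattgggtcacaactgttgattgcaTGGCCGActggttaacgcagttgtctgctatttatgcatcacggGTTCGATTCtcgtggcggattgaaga
T10B9.11 (chrII:9774825-9774924, minus strand): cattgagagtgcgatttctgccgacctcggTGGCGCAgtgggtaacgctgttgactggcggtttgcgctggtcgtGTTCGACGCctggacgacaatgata
T03F7.8 (chrV:11314168-11314267, plus strand): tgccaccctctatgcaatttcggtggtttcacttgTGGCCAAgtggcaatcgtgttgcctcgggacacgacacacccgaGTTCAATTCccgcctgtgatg
B0334.12 (chrII:11484593-11484692, plus strand): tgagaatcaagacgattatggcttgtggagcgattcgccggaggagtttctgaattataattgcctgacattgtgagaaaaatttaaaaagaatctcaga

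For the counts that follow, each gene was placed in 1 of 3 groups. The word group holds either word with at most 1 mismatch at the positions given above. The box group holds no such word, but an A box start 90 to 40 bases before the 5' end or a B box within the 40 bases before it. The remaining genes hold neither. The words and positions were chosen on the occupied unhosted genes, so the difference between occupied and unoccupied members is a description. Hosted snoRNA genes and snRNA genes were not used in that choice, but some hosted genes are sequence relatives of genes that were. One is the occupied T19C4.11, 90.4% identical in the gene to F25H2.15. All matches are on the gene's strand, and a match is not a shown binding site. In the same windows of all nuclear genes, TGTCGGCC with at most 1 mismatch was found at 0.761%, GCGGAACC at 0.793%, the A box start at 2.48% and the B box at 0.478%.

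Among the 54 occupied unhosted genes, 23 fell in the word group, 17 in the box group and 14 in neither. Among the 109 unoccupied ones the counts were 14, 13 and 82. Read the other way, 23 of 37 genes with a word were occupied (62.2%, exact interval 44.8% to 77.5%), 17 of 30 with a box (56.7%, 37.4% to 74.5%) and 14 of 96 with neither (14.6%, 8.21% to 23.3%). Replicate means were 59.5% ± 0 with a word, 56.7% ± 4.71 with a box and 12% ± 0.737 with neither (SD, n = 2). An SD of 0 means that both lists gave the same number of genes, 22.

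At hosted snoRNA genes 12 of 17 genes with a word were occupied (70.6%, 44% to 89.7%), 16 of 24 with a box (66.7%, 44.7% to 84.4%) and 11 of 142 with neither (7.75%, 3.93% to 13.4%). Unhosted and hosted intervals overlapped within each group. For genes with neither, the replicate means were 12% ± 0.737 unhosted and 5.63% ± 0.996 hosted (SD, n = 2), a gap larger than that spread. The classes also differed in how many genes carried such sequence: 67 of 163 unhosted genes (41.1%, 33.5% to 49.1%) and 41 of 183 hosted genes (22.4%, 16.6% to 29.1%), against 4.27% of all nuclear genes. Of the snRNA genes, 55 of 129 fell in the word group and 36 of those 55 were occupied (65.5%). The counts were 5 of 8 snRNA genes with a box and 16 of 66 with neither (24.2%), against 44.2% of all snRNA genes. Nuclear genes other than snoRNA were occupied at 107 of 635 with a word (16.9%), 12 of 20 with both words, 93 of 1258 with a box (7.39%) and 2949 of 44651 with neither (6.605%). Protein-coding genes were occupied at 9 of 262 with a word (3.44%, exact interval 1.58% to 6.42%), 13 of 558 with a box (2.33%) and 474 of 19153 with neither (2.47%). In both of these sets the interval of the box share held the share of genes with neither. At protein-coding genes the interval of the word share held it too.

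**Figure D1:**
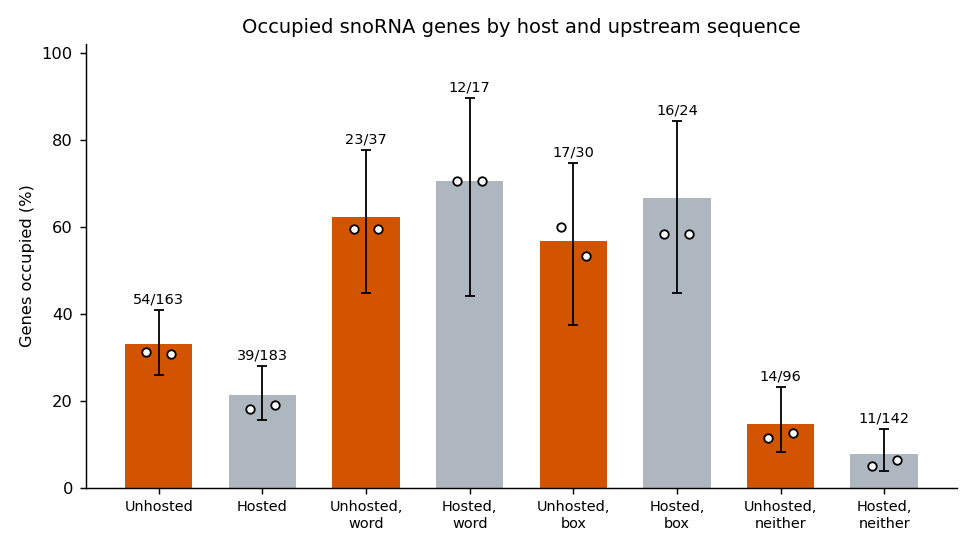
Percent of snoRNA genes occupied by SNPC-1.2, without a host (orange) and with one (grey), for all genes and by upstream sequence. Bars are the whole-series list with exact 95% intervals, the fraction above each bar gives occupied over all genes, and open circles are replicate 1 (left) and replicate 2 (right); genes with a word or a box stand at 56.7% to 70.6% in both classes, and genes with neither at 14.6% and 7.75%.

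The positions of these sequences are bounded by the windows in which they were searched. In the occupied word group TGTCGGCC, or its match, began at a median of 49 bases before the 5' end, written -49, with a range of -60 to -46 at 17 genes. GCGGAACC began at a median of -64, with a range of -81 to -61, also at 17 genes. Where both were present, at 11 genes, they began exactly 15 bases apart at all 11. The 3 unoccupied unhosted genes with both words had the same spacing, as did 5 of the 6 occupied hosted genes with both. Some genes with both words are close sequence relatives, among them Y67A10A.14, F59C6.15, F25H2.15 and the unoccupied F43A11.8. Such relatives are not separate examples of a word or of the spacing. In the box group the A box start lay at a median of -58.5 (range -87 to -50 at 12 genes) and the B box at a median of -14 (range -27 to -10 at 13 genes), and 8 of the 17 genes held both. None of the 54 held TATAAA in the 50 bases before the 5' end, which 6.47% of all promoters did. CTGTTTCA, the motif known upstream of C. elegans piRNA genes, was in the 250 bases before 1 of the 54 (1.85%). Beside this stood 2 of the 109 unoccupied unhosted genes (1.83%) and 1.31% of protein-coding genes. The share over all nuclear genes was 13.7%, but these include the piRNA genes themselves. A B box inside the gene was found at 1 of the 54.

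The summits lay just upstream of the genes. Their median position was -25.5 bp over the 54 genes, with quartiles of -46.5 and 1.25 bp, and 40 of the 54 lay before the 5' end. The replicate lists gave medians of -32 bp in replicate 1 and -26.5 bp in replicate 2, a mean of -29.3 ± 3.89 bp (SD, n = 2). At hosted snoRNA genes the mean of the replicate medians was -33 ± 4.24 bp, within that spread. By group the medians were -24 bp with a word, -41 bp with a box and -11 bp with neither. The mean over replicate medians was -25.3 ± 6.72 bp with a word and -40.8 ± 2.47 bp with a box (SD, n = 2). This gap was larger than either SD, which measures only how far the replicate lists agree. Over genes the groups overlapped, with whole-series quartiles of -47 and -6.5 bp with a word and -54 and -16 bp with a box. Measured from the start of TGTCGGCC, the summit lay a median of 28 bp downstream, with a range of -42 to 143 bp. The summits of WBGene00220176, M03D4.78, Y48A6C.10, F07A11.15 and K02C4.7 in the word group lay further upstream, from -91 to -60 bp. No summit lay close to the 250 bp limit. The occupied genes farthest from their summits were WBGene00220157 at -128 bp, F55H12.9 at 111 bp and B0334.12 at 109 bp. The nearest summits beyond it were at -289 bp for F20D12.10, 318 bp for W03B1.17 and 374 bp for C27H5.10.

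**Figure D2:**
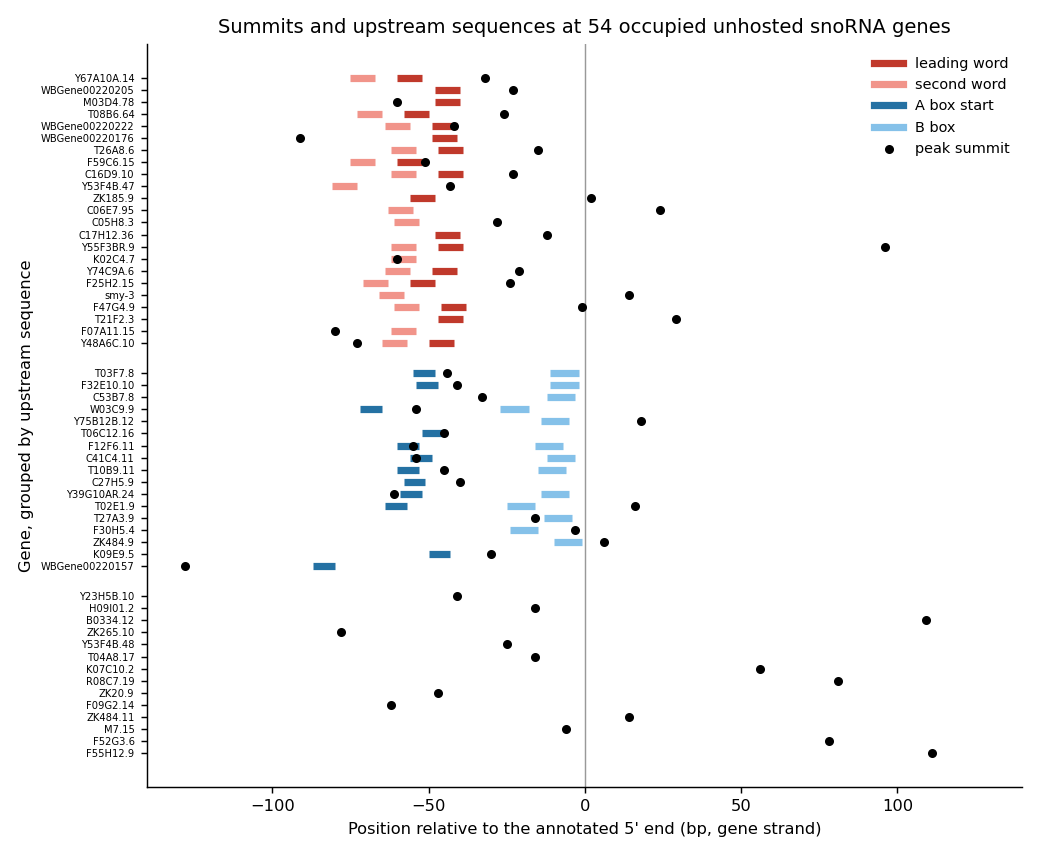
Position of the peak summit (black) and of the upstream sequences (coloured bars) at each occupied unhosted snoRNA gene, in bp from the annotated 5' end on the gene's strand. Genes are grouped into word, box and neither from the top, and by falling signal within a group; the words start between -81 and -46, the B boxes stand just before the 5' end, and 40 of 54 summits lie upstream.

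Signal varied widely between members. Signal is the value the authors' peak caller gave each peak, deposited with no stated unit. Genes are compared by it within a list, and because no common scale of the lists is stated, a replicate's value beside the other's is a description. Over the 54 genes it ran from 78.2 to 3755 with a median of 224, and 50 of them stood above the median of 107 over all 2829 nuclear peaks of the list. The median over the 39 occupied hosted genes was 225; the highest of these were ZK994.7 at 779, Y73B6A.14 at 730, and C51F7.3 and C51F7.4, which share a peak of 723. The 3 groups had medians of 222 with a word, 248 with a box and 158 with neither. In the replicate lists the medians were 120 ± 6.41 with a word, 136 ± 0.6 with a box and 103 ± 15.7 with neither (SD, n = 2).

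The 6 highest members were all inside the chromosome IV piRNA clusters and all in the word group. Y67A10A.14 had a signal of 3755 in the whole-series list, with 1713 in replicate 1 and 2025 in replicate 2. WBGene00220205, which lies antisense within pkd-2, a gene for a polycystin channel, had 2217, with 1020 and 1208 in the replicates. M03D4.78 had 2069 (949 and 1108), T08B6.64 had 1874 (905 and 953), WBGene00220222 had 1207 (520 and 632) and WBGene00220176 had 1121 (507 and 583). All 6 were higher in replicate 2's list. These 6 stood apart from the rest, since the next member, T03F7.8 on chromosome V, had 548. Among the 10 highest nuclear peaks of the whole list 4 belonged to unhosted snoRNA genes.

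Of the 15 unhosted genes inside the clusters 10 were occupied (66.7%, exact interval 38.4% to 88.2%), against 44 of the 148 outside (29.7%, 22.5% to 37.8%). With replicate lists the share inside was 60% ± 0 and outside 28.0% ± 0.478 (SD, n = 2). Over all nuclear genes the whole-series share was 6.91%, and it was not split by region or chromosome. The differences by region, and those by chromosome below, therefore cannot be read as particular to snoRNA genes. The other 4 occupied cluster genes were low: ZK185.9 had 227, C06E7.95 had 222, C17H12.36 had 209 and WBGene00220157 had 78.2. WBGene00220157 was the lowest of all members and was in neither replicate's own list. Upstream sequence moved with the clusters. A word stood before 9 of the 10 occupied cluster genes and before 14 of the 44 occupied genes elsewhere. Among genes with a word, 9 of 10 were occupied inside and 14 of 27 outside (51.9%), with median signals of 1207 and 173. The part of the region and that of the upstream sequence in these differences were not tested. By chromosome, the occupied share was 12 of 38 on I, 11 of 36 on II, 4 of 16 on III, 17 of 31 on IV, 6 of 19 on V and 4 of 23 on X. On chromosome IV outside the clusters it was 7 of 16 (43.8%, 19.8% to 70.1%).

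**Figure D3:**
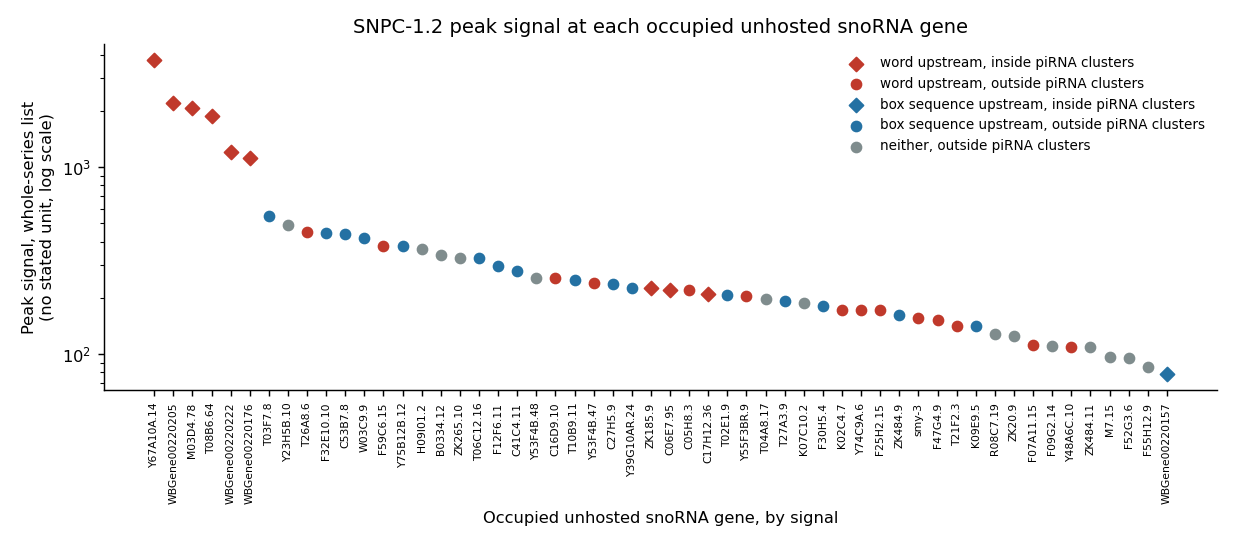
Peak signal in the whole-series list (log scale, no stated unit) at each of the 54 occupied unhosted snoRNA genes, ordered by signal. Diamonds are genes inside the chromosome IV piRNA clusters, circles are genes outside, and colour gives the upstream sequence; the 6 highest genes, from 1121 to 3755, are all red diamonds, and the next gene stands at 548.

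Of the 14 members among the 20 highest that lie outside the clusters, 8 were in the box group, 2 in the word group and 4 in neither. T03F7.8, antisense within cutl-18, had 548 in the whole-series list (294 in replicate 1 and 255 in replicate 2). F32E10.10 had 444 (199 and 244), C53B7.8 had 441 (210 and 214) and W03C9.9 had 418 (242 and 170). Y75B12B.12 had 381 (174 and 205), T06C12.16 had 328 (160 and 162) and F12F6.11 had 297 (149 and 146). C41C4.11 had 278, with 151 in replicate 1 and no call in either list of replicate 2. These 8 genes are all in the box group, and T06C12.16 is the only one without the B box. Genes of the word group among the 20 highest and outside the clusters were T26A8.6, with 449 (203 and 240), and F59C6.15, with 381 (216 and 179). With neither sequence stood Y23H5B.10, with 494 (267 and 234.5), H09I01.2, with 364 (171 in replicate 1 only), B0334.12, with 338 (140 and 184), and ZK265.10, with 329 (169 and 158). B0334.12 lies antisense within twk-5, a gene for a potassium channel, and its summit was 109 bp past its 5' end.

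Among occupied unhosted genes, the box group stood apart in gene length and in the end of the gene. The occupied word group had a median length of 153 bases (range 72 to 271), with 6 of 23 under 100 bases. The occupied box group had a median of 72 bases (range 62 to 151), with 14 of 17 under 100. The 13 unoccupied unhosted genes of the box group had a median of 131 bases, with 2 under 100. Occupied genes with neither had a median of 130 bases (range 62 to 344). A run of TTTT, which ends transcription by RNA polymerase III, was sought in the 50 bases after the 3' end. It was present at 17 of 17 occupied genes of the box group, 15 of 23 of the word group and 10 of 14 with neither. It also followed every unoccupied unhosted gene of the box group except ZC395.12. The run was there at 42 of 54 occupied and 64 of 109 unoccupied unhosted genes, against 61.0% of all nuclear genes. At hosted snoRNA genes it was there at 36 of 39 occupied and 99 of 144 unoccupied ones. Among unhosted genes under 100 bases, 25 of 45 were occupied (55.6%, 40% to 70.4%), against 29 of 118 longer ones (24.6%, 17.1% to 33.4%).

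Of the defining boxes of the RNAs themselves, the C and D boxes together and the ACA triplet were found at few unhosted genes. A C box (ATGATGA or GTGATGA) in the first 20 bases together with a D box (CTGA) in the last 20 was present at 2 of the 54 occupied genes, C16D9.10 and Y55F3BR.9, and at 3 of the 109 unoccupied. The D box, with or without a C box, was present at 23 of 54 occupied and 17 of 109 unoccupied genes. An ACA triplet at 3 bases from the 3' end, with 1 base of slack, was present at 5 of 54 and 15 of 109. Among hosted genes the triplet was present at 13 of 39 occupied and 42 of 144 unoccupied ones. The annotation does not give the box class, so most members could not be assigned to C/D or H/ACA from these letters. One member, smy-3, belongs to the SmY RNAs, which are known from nematode trans-splicing, although its biotype is snoRNA; it had a signal of 155 and a summit at 14 bp.

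Occupancy also differed with the gene identifier. Of the 52 unhosted genes with a WormBase identifier number under 100000, 34 were occupied (65.4%, 50.9% to 78.0%), against 20 of the 111 with higher numbers (18.0%, 11.4% to 26.4%). For hosted genes the counts were 31 of 87 and 8 of 96. Among genes with a word they were 11 of 15 and 12 of 22, with a box 16 of 22 and 1 of 8, and with neither 7 of 15 and 7 of 81. Whether the identifier stands for how well a gene is supported as a transcript was not tested. By position, 38 of 124 intergenic genes were occupied (30.6%, 22.7% to 39.6%), 14 of 33 antisense genes (42.4%, 25.5% to 60.8%), 2 of 5 with partial antisense overlap and 0 of 1 with partial same-strand overlap. The median signal was 252 at intergenic and 202 at antisense genes.

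Several members have close sequence relatives, and within 2 of these sets the signals differed by more than 10 times. Y67A10A.14 (3755) was 97.1% identical in the gene and 78.0% in the 100 bases upstream to F59C6.15 on chromosome I (381). It was 93.8% identical in the gene and 86.0% upstream to F25H2.15 on chromosome I (171), a ratio of 21.9. A further copy, F43A11.8 on chromosome V, carries both words with 1 mismatch each and had no peak in the whole-series list, with 115 in replicate 1's list alone. The hosted T19C4.11, 94.4% identical to F43A11.8, had 225. WBGene00220222 (1207) and WBGene00220176 (1121), both inside a cluster, were 95.5% identical in the gene and 87.0% upstream. Y48A6C.10 on chromosome III was 76.0% identical to WBGene00220222 in the gene and 86.0% upstream, and had 110; it was absent from replicate 2's own thresholded list and had 51.4 in replicate 2's ranked list. W07G1.23 on chromosome II, with 83.0% upstream identity to WBGene00220222, was unoccupied. In the windows printed above, W07G1.23 holds TGTCGGCC without a mismatch and GCGGAACC with 1 mismatch. WBGene00220176 holds TGTCGGCC and no match to the second word.

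T08B6.64 (1874, inside a cluster) and T26A8.6 (449, outside) were 85.7% identical in the gene and 62.0% upstream. M03D4.78 (2069) and C17H12.36 (209) lie in the same cluster with 81.0% upstream identity and the same match to the leading word, and differed by 9.88 times. C53B7.8 on chromosome X (441) has a relative 94.5% identical in the gene, C46C2.8 on chromosome IV, which had no whole-series peak and 167 in replicate 2's list alone. K09E9.5 (142) and ZK643.9 (unoccupied) were 94.7% identical. Reads that match more than 1 copy could be shared or dropped, and how the authors treated such reads is not given in the sources used here. Of 50-base words near the 5' end, 83.6% were unique at F25H2.15, 83.8% at Y48A6C.10, 62.2% at W07G1.23 and 95.4% at Y67A10A.14.

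**Figure D4:**
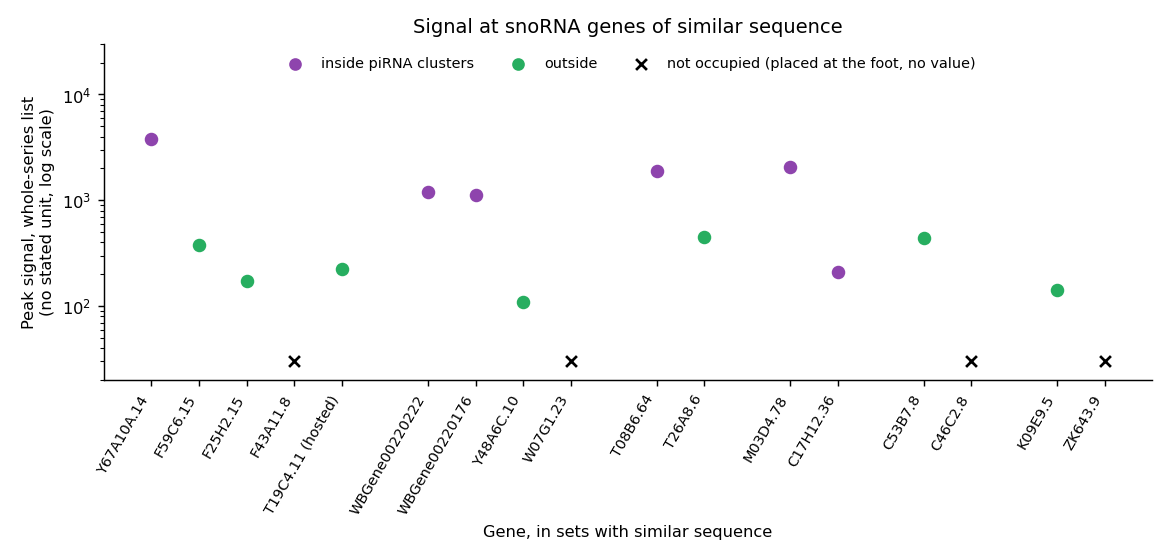
Peak signal in the whole-series list (log scale, no stated unit) at unhosted snoRNA genes of similar sequence, with the hosted relative T19C4.11, in 6 sets separated by gaps. Purple points lie inside the chromosome IV piRNA clusters, green points outside, and crosses are genes with no peak in the list, drawn at the foot of the axis without a value; Y67A10A.14 stands at 3755 and its relative F25H2.15 at 171.

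The replicates' lists were set side by side at the members. Of the 54 occupied genes, 41 were in both replicates' own lists, 6 in replicate 1's only, 5 in replicate 2's only and 2 in neither. Over the 41, replicate 2's signal was a median of 1.05 times replicate 1's (range 0.48 to 1.63) and was higher at 26. Inside the clusters the median ratio was 1.18 at 9 genes and outside it was 1.01 at 32. The lowest ratio was at C17H12.36, with 152 in replicate 1 and 73.1 in replicate 2. Across these 41 genes, Spearman's rho between the replicates was 0.885 and Pearson's r of the log10 signal was 0.965, a description over genes that share their libraries. The summits of the replicates lay a median of 14 bp apart. Genes missing from 1 list were mostly low: smy-3 (155), F47G4.9 (153), F07A11.15 (113) and F09G2.14 (111) were absent from replicate 1's list. Y74C9A.6 (173), Y48A6C.10 (110), ZK484.11 (109) and M7.15 (96.4) were absent from replicate 2's list. H09I01.2 (364) and C41C4.11 (278) were also absent from replicate 2's list, at a signal well above these.

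**Figure D5:**
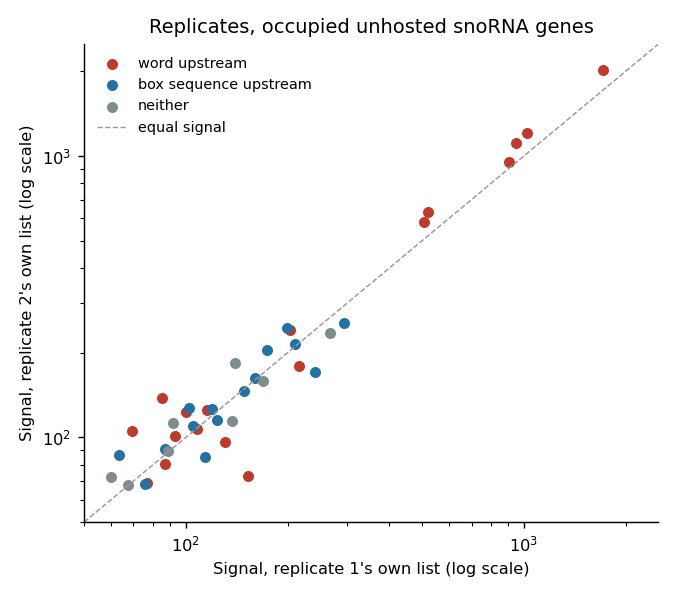
Signal in replicate 2's own list against signal in replicate 1's own list (log scales, no stated unit) at the 41 occupied unhosted snoRNA genes called in both, coloured by upstream sequence, with a dashed line of equal signal. The points follow the line, with a median ratio of 1.05, and the 6 highest genes all lie above it.

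The unoccupied members included genes with calls in other lists. WBGene00220185, inside a cluster with TGTCGGCC at -47, had a call of 1358 in the whole-series ranked list, with 699 and 748 in the replicates' ranked lists and a −log10 global irreproducible discovery rate (IDR) of 5. It was 1 of 95 nuclear calls of the ranked list with an IDR of 0.01 or less that the thresholded list lacks. Of the 109 unoccupied unhosted genes this was the only one with such a call. The next highest ranked calls at unoccupied members were 82.8 at R166.10, 76.8 at T07D4.7, 76.0 at Y77E11A.21 and 71.8 at Y6B3B.15. A ranked call of any strength lay within 250 bp at 43 of the 109, with a median of 47.1. Another 7 were in a replicate's own thresholded list and had no whole-series call. One of them, T19B4.8, with both boxes, was in both replicates' lists at 160 and 144. The other 6, with calls in 1 replicate alone, were C04G6.12, C07A9.14, C18A3.12, C46C2.8, F43A11.8 and W01C9.6. Of the 14 unoccupied genes with a word, 5 had a ranked call under 70, namely K02F6.11, W05B2.9, Y73B3A.30, F37F2.4 and F55A3.8, from 66.95 down to 6.04.

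Genes for snoRNA-bound proteins were read as the other part of the pathway. The list held the box C/D proteins fib-1 (fibrillarin, the methyltransferase), nol-56, nol-58 and snu-13, and the box H/ACA proteins garr-1, dkc-1 (the pseudouridine synthase), nola-3 and Y48A6B.3. None of these 8 had a summit of the thresholded list within 250 bp of its 5' end, a count that the 2.48% of protein-coding genes occupied would also give. Ranked calls, all outside the thresholded list, ranged from 21.99 at dkc-1 to 96.1 at nol-58, and nol-56 and Y48A6B.3 had none.

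The share of occupied unhosted genes moved little with the window and more with the length of the list. Summits within 100 bp gave 51 unhosted and 36 hosted genes, with 3.9% of all nuclear genes. Summits within 500 bp gave 58 and 46, with 10.3% of all nuclear genes. Any overlap of a peak with the 250 bp window gave 57 and 42, with 9.16%. The conservative list gave 56 unhosted genes, with 6.71% of all nuclear genes. The 500 highest peaks gave 32 unhosted genes (19.6%) and 23 hosted genes (12.6%), with 1.29% of all nuclear genes. An IDR limit of 0.001 gave 46 unhosted and 31 hosted genes, with 3.31%. The unhosted share was above the hosted share under each of these settings.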

How the data were processed

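ChIP-seq peak lists of 2 biological replicates of 1 group were used, in assembly ce11, with fragments of 200 to 800 bp per the labels. The deposited signal is the authors' peak caller's value per peak, with no unit stated. The deposited score of a thresholded list and the −log10 IDR score of a ranked list were used only to match peaks between lists and to set limits. For the peak caller, the aligner and the depth, the sources used here state nothing. The 8 columns that the whole-series ranked list holds for the sets of calls compared were not used.

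Gene 5' ends were from Ensembl release 115, and sequence was from the RefSeq genome of the same assembly. No gene or peak ran past a chromosome end, and the mitochondrial genome was left out. Where several summits qualified, the highest signal was taken. Shares carry exact Clopper-Pearson 95% intervals. No significance test was run. Words of 8 bases were ranked by the number of genes holding them, with ties broken by the lower share of all promoters. Gene identity was the number of identical bases in a global alignment over the longer length. Python 3.11.15 was used with pandas 2.3.3, SciPy 1.17.1 and Biopython 1.88, which made the alignments. The procedures were tested on simulated data.

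The members, the lists and the rule for named genes were chosen with earlier results of these data known. The word and box groups, the identifier limit and the sets of relatives were chosen after their values were seen. The rule names the 20 occupied members with the highest signal, those nearest the limit on both sides (3 each), the 5 unoccupied members with the highest ranked call, up to 10 missing from a replicate's list and all inside the clusters. It also names the 10 highest hosted genes, which are not listed one by one. Alternatives were other windows, lists, host definitions, regions and words, and each replicate left out.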

Additional observations from a re-analysis of the deposited data

How the results depend on the processing

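The unhosted share of 33.1% was 31.3% with summits within 100 bp, 35.6% within 500 bp, 35.0% with any overlap, 34.4% with the conservative list, 19.6% with the 500 highest peaks and 28.2% at an IDR limit of 0.001. It was 29.7% outside the clusters, 34.0% over genes with at least 50% unique sequence and 32.7% when a host of any biotype counted. The hosted share of 21.3% was 19.7%, 25.1%, 23.0%, 12.6% and 16.9% with summits within 100 bp, within 500 bp, any overlap, the 500 highest peaks and the IDR limit of 0.001, and 22.1% with a host of any biotype. With a replicate left out the unhosted share was 30.7% to 31.3% and the hosted share 18.0% to 19.1%. The median signal of 224 was 333.5 over the 500 highest peaks and 207 outside the clusters, and 119 to 124 with a replicate left out, on those lists' own scale. The median summit of -25.5 bp was -36.5 bp over the 500 highest peaks, and -32 to -26.5 bp with a replicate left out. The leading word's share of 24.1% was 23.5% to 24.0% with a replicate left out. Words of 6 bases gave AAAAAT at 55.6%, and words of 10 bases gave 22.2%. Outside the clusters the leading word became AAAAATTT at 22.7%, which 14.7% of all promoters hold, against 18.2% for TGTCGGCC there. The share of genes with a word that were occupied, 62.2%, was 77.3% with no mismatch, 78.6% with both words, 51.9% outside the clusters, 64.9% with ranked calls added and 59.5% with either replicate left out. An IDR limit of 0.01 removed no peak and says nothing; the limit of 0.001 and the settings of the word group were chosen after seeing the data. The cause of these moves was not tested. No paired analysis was possible because there is 1 group. Depth is unknown, so genes without a peak may lie under the detection limit.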
